A study of Mus musculus with 12 samples.

Results

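The ribosomal protein transcripts of sorted wound-edge keratinocytes are described here as a cytosolic and a mitochondrial set. The members were the gene symbols that follow the naming of the cytosolic proteins (Rpl, Rps and Rplp genes and Rpsa) or of the mitochondrial proteins (Mrpl and Mrps genes) and that reached at least 5 CPM (counts scaled to a common library total) in at least 3 of the 12 libraries. Of 162 such symbols among 55315, 149 met this level. The cytosolic set held 79 genes, namely 43 of the large subunit, 33 of the small subunit and the 3 stalk proteins Rplp0, Rplp1 and Rplp2. The mitochondrial set held 70 genes, 47 of the large and 23 of the small subunit. Rpl23a stood just outside the limit, with 5.38 CPM in 1 library and 2.01 to 4.36 CPM in the others. Mrpl23 was the lowest mitochondrial and Rps10 the lowest cytosolic member, with means over all libraries of 4.25 and 5.53 CPM. The 13 symbols that fell short included Rpl24, Mrps33 and Mrps36, with maxima of 3.10, 2.61 and 2.84 CPM, and Mrpl53, with at most 0.17 CPM in any library.

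Skin was wounded and a ring 0.25 mm wide at the wound edge was taken 3 days later, with 2 or 3 mice pooled for each library. Live Epcam+ cells positive for integrin alpha6 were sorted by integrin alpha5 (A5), after exclusion of CD45+, CD31+ and CD117+ cells; A5-positive cells are the migrating tongue and A5-negative cells the rest of the wound-edge epithelium. The 4 groups were RORγt-deficient A5-positive, RORγt-deficient A5-negative, wild-type A5-positive and wild-type A5-negative cells, with 3 libraries each and the same sample numbers 1 to 3 in every group. RORγt-deficient mice, whose samples are titled GFP-KI, are called KO and wild-type mice WT below; the labels name no promoter, Cre, age or sex. RORγt is a transcription factor of lymphocytes that produce interleukin-17, so the sorted cells are epithelial cells from animals with or without those lymphocytes, not the cells that normally carry the factor. The study set out to learn how migrating and non-migrating epithelium differ and how each differs between the genotypes.

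The ribosome reads messenger RNA and joins amino acids into protein. Its cytosolic form is built in the nucleolus from nuclear ribosomal RNA and proteins of the Rpl and Rps families, and the proteins Rplp0, Rplp1 and Rplp2 form the stalk that recruits elongation factors. Mitochondria hold a separate ribosome, assembled from the mitochondrial rRNAs mt-Rnr1 and mt-Rnr2 and proteins encoded in the nucleus, and it translates the few proteins of the respiratory chain and ATP synthase that mitochondrial DNA encodes. Most cytosolic ribosomal protein messages begin with a run of pyrimidines, the terminal oligopyrimidine tract, through which mTORC1 signalling controls their translation. In epidermis the basal keratinocytes that divide and migrate have a high demand for protein synthesis.

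The start regions of the sets differed in letters. In RefSeq promoter windows of 250 bases before to 50 bases after each annotated start (GRCm38.p6), a run of at least 8 C or T bases on the gene strand within 50 bases of the start was found in 50 of the 59 cytosolic members with a window. It was found in 20 of 61 mitochondrial members and in 39.3% of 27025 genes with a window. The sequence CCGGAAG, a core of sites for ETS-family factors, stood on either strand of the whole window in 25 of 59 cytosolic and 20 of 61 mitochondrial members, against 9.93% of all windows. GCGCA, any base and GCGC in that order, a core of nuclear respiratory factor 1 sites, was present on either strand in 6 of 59 cytosolic and 11 of 61 mitochondrial members, against 5.19% of all windows. GGCGGAA was present on either strand in 13 of 59 and 6 of 61 members, against 5.67%; TATAAA on the gene strand in the 50 bases before the start was present in 1 of 59 and 0 of 61 members, against 3.15%. GGCGGAA and CCGGAAG share letters and can overlap. Such matches describe the letters and not binding.

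The stretches below were chosen for members that the results turn on, and capitals mark the first such pyrimidine run within 50 bases of the start. Whether these runs begin the messages was not tested. Those of Rpl13a, Rpl22 and Rps27l lie upstream of the gene's start in GENCODE M21. Rps27l and Mrps6 hold a second run of that kind in the printed stretch, left in lower case. They read 5′ to 3′ on the gene strand, and the mitochondrial Mrps6 and Mrpl12 stand last.
Rplp2, chr7:141447636-141447665, plus strand: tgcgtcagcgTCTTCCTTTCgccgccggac
Rpl39, chrX:37085225-37085254, minus strand: cgagtcatccaTCCCCCCCTaagctccgcc
Rpl13a, chr7:45128770-45128799, minus strand: cgtctgcgtcaCTTCCTCCgcccctgcagc
Rps2, chr17:24720078-24720107, plus strand: actataaattgTCCCTTCCgcggcgcctcc
Rpl22, chr4:152325679-152325708, plus strand: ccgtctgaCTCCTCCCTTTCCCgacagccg
Rpl22l1, chr3:28805499-28805528, plus strand: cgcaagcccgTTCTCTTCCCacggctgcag
Rps27, chr3:90213632-90213661, minus strand: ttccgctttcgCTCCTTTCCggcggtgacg
Rps27l, chr9:66946053-66946082, plus strand: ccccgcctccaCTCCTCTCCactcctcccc
Rpl4, chr9:64173361-64173390, plus strand: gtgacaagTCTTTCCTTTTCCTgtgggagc
Mrps6, chr16:92058343-92058372, plus strand: accggccgtgTTCCTCTCTCgtcttcctct
Mrpl12, chr11:120484617-120484646, plus strand: cggacagctcgCCTCCTCCCggatagagcg
In the next stretches capitals mark CCGGAAG or its reverse complement, in 4 mitochondrial members whose values are given below and in Rps27l, which carries both features.
Mrps27, chr13:99344727-99344755, plus strand: tggtaggaccaCTTCCGGcggaggcgggc
Mrpl58, chr11:115403724-115403751, plus strand: ctggcggaccgCCGGAAGagtgagcacc
Mrps16, chr14:20393547-20393575, minus strand: ttgggggcgctCTTCCGGgcttcaggctc
Mrpl3, chr9:105053238-105053266, plus strand: tgagaaacggaCCGGAAGtggcccggctg
Rps27l, chr9:66946084-66946101, plus strand: ccgcctctatcCCGGAAG

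Library totals ran from 29293687 to 74563616 counts. Itga5, the gene for the sorted integrin, had 107, 122 and 137 CPM in KO A5-positive cells, against 54.0, 61.3 and 47.4 CPM in KO A5-negative cells. In WT it had 85.1, 101 and 97.2 CPM in A5-positive cells, against 52.0, 42.2 and 46.3 CPM in A5-negative cells. The keratinocyte markers Krt5, Krt14, Trp63, Epcam, Itga6, Itgb4, Krt1, Krt10, Krt15 and Dsp were present in every library. Their median log2 change with A5 was -0.18 in KO, with 1 of 10 called lower, and -0.04 in WT, with none called. In KO, Krt1, Krt10 and Dsp were lower in A5-positive cells without overlap, and in WT they overlapped. In WT, Krt5 and Krt14 were higher in A5-positive cells without overlap. The list of 12 genes that mark fibroblasts rose with A5: 10 passed the edgeR test upward in KO and 10 in WT, with median log2 changes of 5.54 and 5.0, and Fap alone was at 0, in 1 library. Their summed level was 10800 to 18300 CPM in KO A5-positive cells, against 736 to 1830 CPM in KO A5-negative cells. In WT the sums were 6390 to 9950 CPM in A5-positive cells, against 1460 to 2140 CPM in A5-negative cells. Postn made up most of the A5-negative sums, at 743 to 1330 CPM in KO and 1220 to 2050 CPM in WT. These Postn values use TMM-scaled totals and the sums plain totals. Postn overlapped between A5-positive and A5-negative cells in each genotype. Macrophage markers had median log2 changes of -1.7 in KO and -2.29 in WT. Langerhans and dendritic markers had -0.73 and -1.49, and no marker of these lists was called. Macrophage markers summed to 69.4 to 172 CPM in KO A5-positive cells, against 73.3 to 487 CPM in KO A5-negative cells. In WT the macrophage sums were 80.9 to 139 CPM in A5-positive cells, against 73.2 to 1260 CPM in A5-negative cells. These ranges overlapped in each genotype. Langerhans and dendritic markers summed to 323 to 714 CPM in KO A5-positive cells, against 232 to 970 CPM in KO A5-negative cells, and to 235 to 741 CPM in WT A5-positive cells, against 253 to 2980 CPM in WT A5-negative cells; the highest was WT A5-negative sample 1. T-cell markers were too low to be tested. In bulk RNA, fewer cells of a type and less RNA per cell cannot be told apart.

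Cytosolic ribosomal protein transcripts took a small share of the counts, and mitochondrial ones less. Many cytosolic members share sequence with other genes, and the handling of multiply mapped reads is not given. These shares of counts may therefore differ from shares of the RNA. The cytosolic set made up 1.38%, 0.75% and 0.975% of counts in KO A5-positive samples 1 to 3, against 0.771%, 0.692% and 0.932% in KO A5-negative samples. In WT it made up 1.48%, 0.89% and 1.17% in A5-positive samples, against 1.33%, 0.773% and 1.05% in A5-negative samples. The mitochondrial set made up 0.205%, 0.122% and 0.164% in KO A5-positive samples, against 0.112%, 0.105% and 0.129% in KO A5-negative samples. In WT it made up 0.248%, 0.16% and 0.186% in A5-positive samples, against 0.185%, 0.129% and 0.151% in A5-negative samples. Sample 2 was lowest in each group, and sample 1 was highest in 3 of the 4 groups; the exception was KO A5-negative sample 1, which lay nearer to sample 2 than to the other samples numbered 1. For both sets the A5-positive sample exceeded the A5-negative sample of the same number in all 6 pairs, although the ranges of A5-positive and A5-negative samples overlapped for each set in each genotype.

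**Figure D1:**
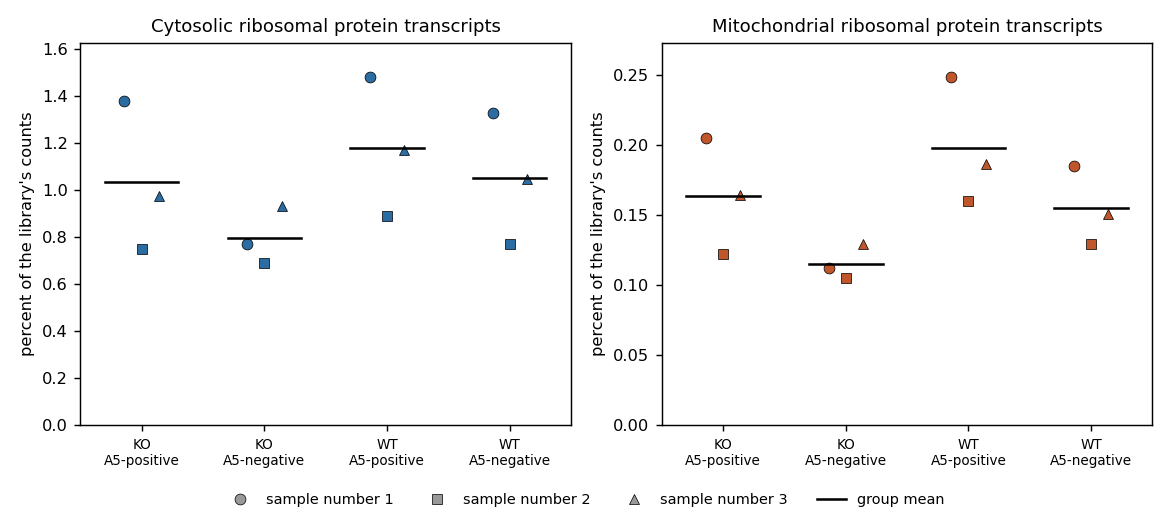
Share of all counts of a library, in percent, taken by the cytosolic (left) and mitochondrial (right) ribosomal protein transcripts in the 4 groups; each symbol is a library and its shape the sample number, and lines are group means. Sample 1 stood highest in every group but KO A5-negative, where it had 0.771% and 0.112%.

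Within the cytosolic set, levels per kilobase of transcript ran from 6.24 CPM for Rps10 to 844 CPM for Rplp0, with a median of 74.9 CPM. Rplp0, the stalk base, was followed by the large-subunit protein Rpl4 at 723 CPM per kilobase and the small-subunit protein Rps2 at 377. In the mitochondrial set the median was 13.4 CPM per kilobase, and Mrpl4, Mrpl28 and Mrpl36, all of the large subunit, led with 56.8, 51.5 and 36.3. These levels depend on counting: a median of 43.9% of the 50-base windows of a cytosolic member's transcript also occurred in another gene's transcripts, against a median of 0% for mitochondrial members. The share reached 98.6% for Rps27 and 76.4% for Mrpl23. Across the 79 cytosolic genes the shared percentage and the level per kilobase had a Spearman correlation of 0.23, and across the 70 mitochondrial genes of -0.09, as a description over genes measured in the same libraries.

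Levels also differed by sample number. The median cytosolic member was 1.61-fold higher in the libraries numbered 1 than in those numbered 2, and the median mitochondrial member 1.38-fold higher, against 1.02-fold for all 16677 genes tested. Rps21 showed the steepest gradient, at 1.99-fold, and Rpl7l1, a paralog of Rpl7, ran the other way at 0.911-fold. Rpl4 varied least of the cytosolic members, 1.4-fold between its highest and lowest library. Among mitochondrial members Mrpl48 varied least, 1.55-fold, and Mrpl34 most, 4.56-fold. Libraries of the same number deviated together from their group means across genes, so fits with the sample number as a block are given beside those without it. What the number stands for is not given in the sources used here, and depth moved with it in part: sample 1 had 51694159 to 74563616 counts and samples 2 and 3 had 29293687 to 38057652.

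In KO mice, all 149 members had a higher fitted level in A5-positive than in A5-negative cells, where 50% of all genes did, with median log2 changes of 0.43 for the cytosolic and 0.47 for the mitochondrial set, against 0 for all genes. No member passed the test in edgeR's 4-group model at a Benjamini-Hochberg adjusted p of 0.05, where 5.52% of all genes did; at an unadjusted p under 0.05 there were 1 cytosolic member, Rps27l, and 29 mitochondrial members, all higher, against 13.1% of all genes higher and 8.69% lower. The A5-positive and A5-negative libraries did not overlap for 22 mitochondrial members and 1 cytosolic member, all higher in A5-positive cells, against 14.3% of all genes higher and 11.3% lower. With sample number as a block, 23 mitochondrial (32.9%) and 3 cytosolic members (3.8%) rose, against 10.1% of all genes, and none fell, against 7.54%. These calls leaned on single libraries: without KO A5-positive sample 1 none of either set was left, and without KO A5-positive sample 3 or KO A5-negative sample 1 there was 1 mitochondrial call. Within sample 1 the median log2 difference was 0.96 for cytosolic and 0.86 for mitochondrial members, in sample 2 it was 0.09 and 0.15, and in sample 3 it was 0.07 and 0.35.

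Mrpl12, the large-subunit protein homologous to the bacterial stalk protein L7/L12, had 54.6, 29.6 and 39.6 CPM in KO A5-positive cells, against 22.1, 23.8 and 27.0 CPM in KO A5-negative cells. The groups did not overlap, and the log2 change was 0.76 ± 0.25 (SE; edgeR adjusted p = 0.111), or 0.71 ± 0.18 with the block (adjusted p = 0.0232). Mrpl13 had 41.8, 21.9 and 28.8 CPM in KO A5-positive cells, against 16.9, 17.7 and 17.2 CPM in KO A5-negative cells, a log2 change of 0.84 ± 0.26 (edgeR adjusted p = 0.091, and 0.0125 with the block). Mrpl58, a member of the release-factor family that sits in the large subunit, had 18.7, 8.34 and 15.4 CPM in KO A5-positive cells, against 7.45, 6.73 and 8.32 CPM in KO A5-negative cells. Its change of 0.92 ± 0.30 was the largest of the mitochondrial set (edgeR adjusted p = 0.107, and 0.0186 with the block). Mrpl28, Mrpl46 and Mrpl50 completed the members with the smallest p-values without the block, with log2 changes of 0.62 ± 0.20, 0.71 ± 0.25 and 0.37 ± 0.13. With the block they had 0.58, 0.70 and 0.37 (edgeR adjusted p = 0.0249, 0.0441 and 0.0317). When single compared libraries were left out, these blocked calls were kept in 3, 1 and 0 of 6 fits.

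Rplp2, Rpl39 and Rps27l were the 3 cytosolic members that rose with the block, a smaller share than of all genes (3.8% against 10.1%). When single compared libraries were left out, these calls were kept in 2, 1 and 3 of 6 fits. Rplp2, an acidic stalk protein, had 103, 47.8 and 68.2 CPM in KO A5-positive cells, against 47.2, 38.4 and 55.7 CPM in KO A5-negative cells. Its blocked log2 change was 0.56 ± 0.16 (edgeR adjusted p = 0.0381), and the groups overlapped, since KO A5-positive sample 2 lay below KO A5-negative sample 3. Rpl39, which lines the exit tunnel, had 19.2, 9.38 and 14.6 CPM in KO A5-positive cells, against 8.89, 6.96 and 11.5 CPM in KO A5-negative cells, and a blocked change of 0.61 ± 0.19 (edgeR adjusted p = 0.0457). Rps27l, a p53-inducible paralog of Rps27, had 57.4, 30.2 and 39.8 CPM in KO A5-positive cells, against 28, 23.3 and 32.6 CPM in KO A5-negative cells, and a blocked change of 0.56 ± 0.15 (edgeR adjusted p = 0.0268). Rpl35, at the tunnel's exit, was the cytosolic member whose libraries did not overlap, with 47.6, 27.9 and 30.1 CPM in KO A5-positive cells, against 24.4, 23.1 and 26.0 CPM in KO A5-negative cells (log2 change 0.52 ± 0.25, edgeR adjusted p = 0.245, and 0.0545 with the block). Rpl27, Rpl13a, Rps15 and Rps2 followed, with log2 changes of 0.50, 0.45, 0.60 and 0.50 and blocked adjusted p-values of 0.0767 to 0.0807.

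In WT mice the same comparison gave fitted values above 0 for 77 of 79 cytosolic and 69 of 70 mitochondrial members, with medians of 0.27 and 0.42, against 0.03 for all genes, of which 52.1% were above 0. The members at or below 0 were Rpl10a, Rps10 and Mrps6. No member passed the 4-group edgeR test, against 3.45% of all genes; at an unadjusted p under 0.05 there were 0 cytosolic members, 16 mitochondrial members that were higher, against 12.8% of all genes, and 1, Mrps6, that was lower, against 7.68%. The libraries did not overlap for 18 mitochondrial members higher in A5-positive cells, against 15.9% of all genes, for Mrps6 in the other direction, against 9.12%, and for no cytosolic member. With the block 13 mitochondrial members rose, against 8.76% of all genes, no member fell, against 5.59%, and no cytosolic member was called; leaving out single libraries took the 13 to between 0 and 9, with 0 without A5-positive sample 1 or 2 or without A5-negative sample 1 or 3. Within samples 1, 2 and 3 the median log2 differences were 0.35, 0.17 and 0.18 for the cytosolic and 0.57, 0.31 and 0.30 for the mitochondrial set.

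Mrpl12 had 79.4, 43.8 and 48.3 CPM in WT A5-positive cells, against 41.7, 30.4 and 33.0 CPM in WT A5-negative cells, again without overlap (log2 change 0.71 ± 0.25, edgeR adjusted p = 0.148, and 0.0308 with the block). Mrps16, a small-subunit protein whose loss in humans causes a respiratory-chain deficiency, had 21.7, 10.8 and 12.1 CPM in WT A5-positive cells, against 10.5, 7.94 and 7.4 CPM in WT A5-negative cells. Its log2 change was 0.79 ± 0.31 (edgeR adjusted p = 0.175, and 0.0322 with the block), and the groups did not overlap. Mrpl3, at 64.6, 46.8 and 51.1 CPM in WT A5-positive cells, against 45.3, 33.6 and 39.5 CPM in WT A5-negative cells, had a log2 change of 0.46 ± 0.16 (edgeR adjusted p = 0.148, and 0.0322 with the block). Mrpl28 had 0.55 ± 0.20, with a blocked adjusted p of 0.0361. Mrps10 and Mrps22, with 0.44 ± 0.16 and 0.50 ± 0.19, did not pass with the block either (adjusted p = 0.0665 and 0.068). Among cytosolic members Rpl13a (0.44 ± 0.22) and Rps2 (0.47 ± 0.25) had the smallest p-values, each with an adjusted p of 0.0754 with the block.

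**Figure D2:**
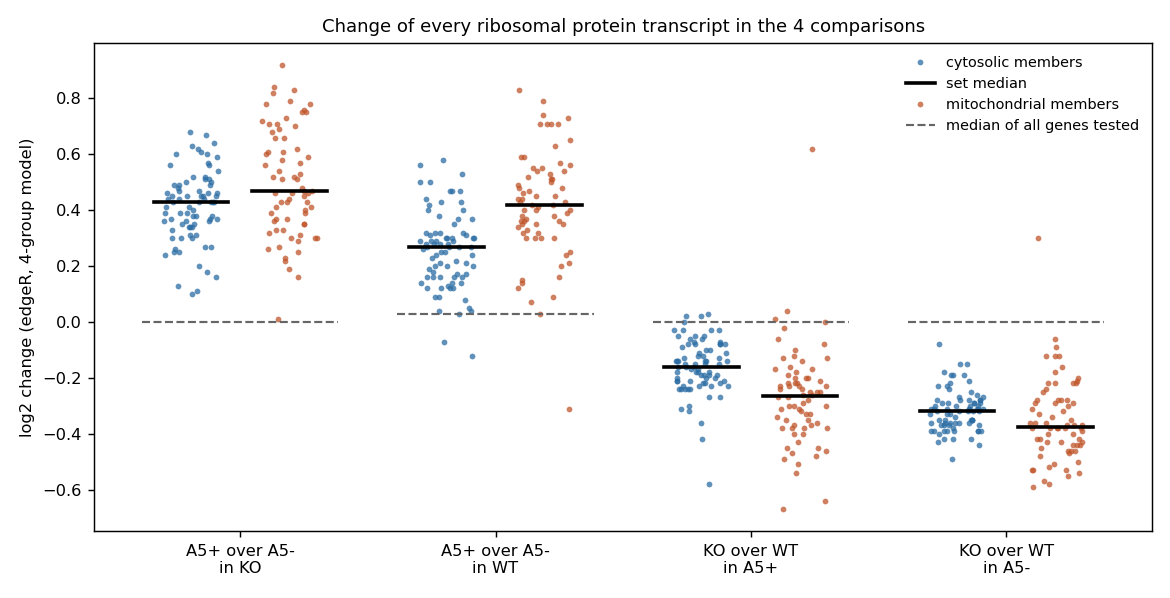
Log2 change of each of the 149 members (points) in the 4 comparisons, from edgeR's 4-group model without block; thick lines are set medians and dashed lines the median of all genes tested. Medians lay at 0.43 and 0.47 in KO and 0.27 and 0.42 in WT for A5, and at -0.16 and -0.27 in A5-positive and -0.32 and -0.37 in A5-negative cells for genotype; the point high above the mitochondrial cloud in the last pair of columns is Mrps6.

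An average over both genotypes, added after the data had been seen, set 6 A5-positive against 6 A5-negative libraries. With the block, 55 of 70 mitochondrial and 31 of 79 cytosolic members rose in A5-positive cells and none fell, against 18.5% of all genes that rose and 15.5% that fell. Without the block the counts were 19 mitochondrial and 0 cytosolic members that rose, against 11.9% of all genes, and none that fell, against 6.35%. Leaving out single libraries gave 34 to 53 mitochondrial and 6 to 32 cytosolic calls, the fewest of each without KO A5-positive sample 1. By subunit, 35 of 47 large and 20 of 23 small mitochondrial members rose, and 17 of 43 large, 12 of 33 small and 2 of 3 stalk cytosolic members. Cytosolic members that did not pass included the 2 with the most counts: Rplp0 had 0.10 ± 0.10, Rpl4 0.08 ± 0.07 (SE), with edgeR adjusted p-values of 0.46 and 0.439, and Rpl10a, at 0.00 ± 0.12, had 0.997. Among mitochondrial members, Mrpl42 (0.71 ± 0.12), Mrpl15 (0.54 ± 0.09) and Mrps11 (0.73 ± 0.13) had the smallest adjusted p-values, of 0.00174, 0.00191 and 0.00215.

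Of the members that rose in this blocked average, 31 mitochondrial and 6 cytosolic ones kept the call when any 1 of the 12 libraries was left out. The cytosolic 6 were Rpl13a, Rpl39, Rpl41, Rplp2, Rps2 and Rps27l. Rpl41, the shortest ribosomal protein, had 132, 55.9 and 86.2 CPM in KO A5-positive cells, against 53.3, 46.6 and 76.1 CPM in KO A5-negative cells; in WT it had 157, 70.2 and 112 CPM in A5-positive cells, against 101, 55.5 and 73.4 CPM in A5-negative cells. Each A5-positive sample exceeded its A5-negative partner, while the ranges overlapped in both genotypes. Rps2, a protein of the messenger RNA entry site, had 570, 295 and 400 CPM in KO A5-positive cells, against 275, 278 and 340 CPM in KO A5-negative cells. In WT it had 694, 423 and 504 CPM in A5-positive cells, against 459, 311 and 401 CPM in A5-negative cells, again higher in each of the pairs. When the mean level of the fibroblast markers was added as a covariate to the blocked fits, no member of either set was called in any comparison or average; the summed fibroblast level itself did not overlap between A5-positive and A5-negative libraries.

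The ratio of the cytosolic to the mitochondrial set was lower in A5-positive than in A5-negative cells within each sample number. The log2 ratio of summed cytosolic to summed mitochondrial counts was 2.75, 2.62 and 2.57 in KO A5-positive samples, against 2.78, 2.73 and 2.85 in KO A5-negative samples. In WT it was 2.58, 2.48 and 2.66 in A5-positive samples, against 2.84, 2.59 and 2.79 in A5-negative samples. Within a number the A5-positive sample was lower in all 6 pairs, by 0.03, 0.10 and 0.28 in KO and 0.27, 0.11 and 0.14 in WT as absolute differences on the log2 scale. Group means were 2.65 ± 0.0957 in KO A5-positive, 2.79 ± 0.0615 in KO A5-negative, 2.57 ± 0.0879 in WT A5-positive and 2.74 ± 0.136 in WT A5-negative cells (SD, n = 3 each), so the differences in means were of the order of the spread within a group, 0.099. KO A5-positive samples 1 and 2 lay above their WT partners and sample 3 below, so genotype gave no common direction. Without the 5 most abundant members of each set the means were 2.34 in KO A5-positive, 2.44 in KO A5-negative, 2.25 in WT A5-positive and 2.40 in WT A5-negative cells.

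**Figure D3:**
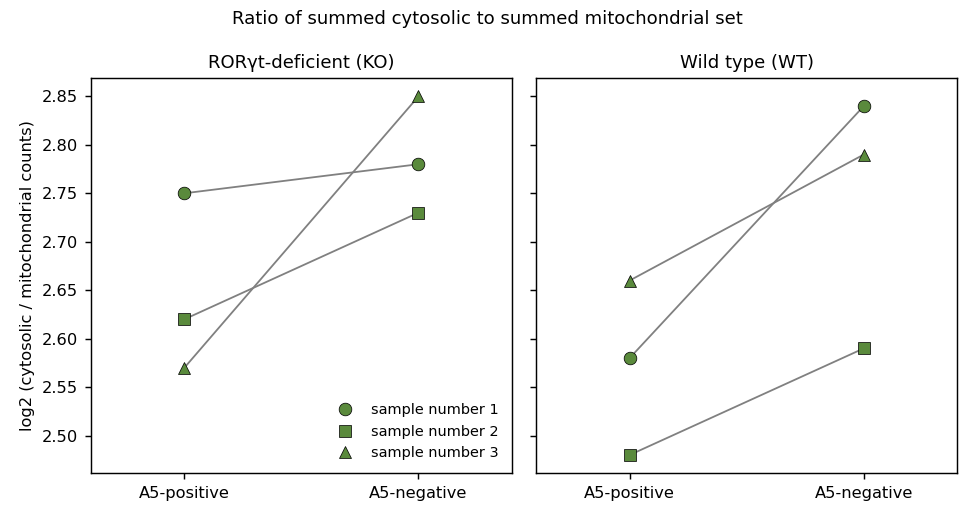
Log2 ratio of summed cytosolic to summed mitochondrial ribosomal protein counts in each library, KO left and WT right; lines join the A5-positive and A5-negative samples of the same number. Every line rises towards A5-negative cells and is flattest in KO sample 1, at 2.75 in A5-positive and 2.78 in A5-negative cells.

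In A5-positive cells, KO mice had lower fitted values than WT mice for 75 of 79 cytosolic and 66 of 70 mitochondrial members, with medians of -0.16 and -0.27 against 0 for all genes, of which 50.2% were above 0. No member passed the 4-group edgeR test, and 0.006% of all genes did; at an unadjusted p under 0.05 there were 0 cytosolic members and 4 mitochondrial ones, Mrps6 higher, against 7.38% of all genes, and Mrps27, Mrps22 and Mrps2 lower, against 7.59%. Libraries did not overlap for Mrps6, higher in KO (against 9.04% of all genes), and for Mrps27 and Mrps2, lower in KO (against 9.01%). With the block Mrps6 rose (against 2.26% of all genes) and Mrps27 fell (against 1.76%). Both calls were lost without any of 5 of the 6 libraries compared. Within samples 1, 2 and 3 the median log2 difference was -0.10, -0.13 and -0.24 for cytosolic and -0.26, -0.37 and -0.19 for mitochondrial members. Fibroblast markers were higher in the same comparison, with a median log2 change of 1.21 and none of the 12 called. Their sums were 10800 to 18300 CPM in KO A5-positive cells, against 6390 to 9950 CPM in WT A5-positive cells, without overlap. Postn differed, at 1270 to 2150 CPM in KO A5-positive cells, against 1620 to 2960 CPM in WT A5-positive cells. The keratinocyte markers summed to 41400 to 56700 CPM in KO A5-positive cells, against 54200 to 78300 CPM in WT A5-positive cells; the part of either list in the result was not tested.

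Mrps27 (chr13:99344786-99415562, plus strand, GRCm38), a pentatricopeptide-repeat protein of the small subunit that binds RNA, had 35.5, 25.2 and 37.0 CPM in KO A5-positive cells, against 58.3, 48.9 and 48.1 CPM in WT A5-positive cells. In A5-negative cells it had 25.4, 27.4 and 33.1 CPM in KO, against 37.1, 42.7 and 46.1 CPM in WT. The genotypes did not overlap in either fraction, and KO was lower in all 6 pairs of the same number and fraction. The log2 changes were -0.67 ± 0.17 in A5-positive cells (edgeR adjusted p = 0.178, and 0.0404 with the block) and -0.55 ± 0.17 in A5-negative cells (adjusted p = 0.779, and 0.168 with the block). Of the exonic bases of Mrps27, 24.2% overlap the gene 6430562O15Rik.

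Mrps6 (chr16:92058270-92112227, plus strand), a small-subunit protein, was the only member with a higher fitted value in KO than in WT A5-negative cells. In A5-positive cells, 4 cytosolic and 4 mitochondrial members were higher in KO, and Mrps6 had the largest rise. It had 38.1, 31.4 and 27.0 CPM in KO A5-positive cells, against 20.6, 20.7 and 21.5 CPM in WT A5-positive cells, and 31.8, 33.4 and 30.4 CPM in KO A5-negative cells, against 25.9, 25.5 and 26.2 CPM in WT A5-negative cells. KO was higher without overlap in both fractions. The log2 changes were 0.62 ± 0.13 (edgeR adjusted p = 0.178, and 0.037 with the block) and 0.30 ± 0.13 (adjusted p = 0.779, and 0.288 with the block). Of its exonic bases 19.9% overlap Gm49711 and Slc5a3, a sodium-dependent inositol transporter whose gene overlaps Mrps6, and 32.2% of its windows occur in other genes, so counts of this locus may be split or pooled between them. Within WT it was also lower in A5-positive than in A5-negative cells, without overlap (log2 change -0.31 ± 0.13, edgeR adjusted p = 0.218).

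In A5-negative cells, all 79 cytosolic members and 69 of 70 mitochondrial members, Mrps6 again excepted, had lower fitted values in KO than in WT, with medians of -0.32 and -0.37 against 0 for all genes, of which 50% were above 0. No member passed the 4-group edgeR test with or without the block, where 0.006% of all genes passed in each; at an unadjusted p under 0.05 without the block there were 0 cytosolic members, 6 lower mitochondrial members, against 2.15% of all genes, and 1 higher, against 2.94%. Libraries did not overlap for 29 mitochondrial members that were lower in KO, 18 of the large and 11 of the small subunit, against 8.26% of all genes, for Mrps6 in the other direction, against 7.33%, and for no cytosolic member. The members with the smallest p-values besides Mrps27 were Mrpl50 (log2 change -0.38 ± 0.13), Mrpl45 (-0.38 ± 0.15), Mrpl39 (-0.57 ± 0.23) and Mrps30 (-0.44 ± 0.18), each with an edgeR adjusted p of 0.779. Mrpl50 had 22.9, 22.5 and 24.5 CPM in KO A5-negative cells, against 33.4, 27.1 and 30.6 CPM in WT A5-negative cells. Much of the size came from sample 1, where the median log2 difference was -0.73 for cytosolic and -0.65 for mitochondrial members; in samples 2 and 3 it was -0.07 and -0.12 for cytosolic and -0.19 and -0.22 for mitochondrial members. In that sample the macrophage markers summed to 468 CPM in KO A5-negative cells, against 1260 CPM in WT A5-negative cells, and the Langerhans and dendritic markers to 932 CPM against 2980 CPM; their part in the result was not tested.

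Averaged over both fractions with the block, 14 mitochondrial (20%) and 2 cytosolic members (2.53%) fell in KO, against 5.13% of all genes. Mrps6, 1.43% of the mitochondrial set, rose, against 6.97% of all genes. This average was also added after the data had been seen. It takes the A5-positive and A5-negative libraries of a genotype and sample number as independent. Whether they came from the same pool of mice is not given. If they did, the p-values of this average may be too small. Without the block no member was called, against 0.018% of all genes lower and 0.036% higher. Mrps27 fell by 0.62 on the log2 scale (SE 0.11, edgeR adjusted p = 0.01) and kept the call when any of the 12 libraries was left out. Mrps6 rose by 0.46 (SE 0.09, adjusted p = 0.0125) and lost the call only without WT A5-negative sample 2, where the adjusted p was 0.057. Mrpl15, Mrps23 and Mrpl39 fell by 0.46, 0.46 and 0.52 (adjusted p = 0.0164, 0.019 and 0.02), and each lost the call without KO A5-positive sample 2 or WT A5-negative sample 2. Leaving out single libraries gave 1 to 22 mitochondrial calls, the fewest without WT A5-negative sample 2, and without KO A5-negative sample 1 there were 6.

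The cytosolic members that fell in this average were Rpl13a and Rps4l, a smaller share than of all genes (2.53% against 5.13%). Rpl13a, which in human monocytes also takes part in a complex that silences inflammatory messages, had 20.2, 12.4 and 16.9 CPM in KO A5-positive cells, against 25.6, 18.6 and 22.2 CPM in WT A5-positive cells. In A5-negative cells it had 10.9, 10.8 and 14.6 CPM in KO, against 19.5, 13.3 and 16.0 CPM in WT. Its averaged change was -0.43 ± 0.11 (edgeR adjusted p = 0.0322), held in 5 of 12 leave-outs; 57.4% of its windows occur in other genes. Rps4l, a mouse paralog of the small-subunit protein Rps4x, had 33.8, 14 and 22.6 CPM in KO A5-positive cells, against 40.4, 27.9 and 36.9 CPM in WT A5-positive cells, and 17.2, 15 and 24.7 CPM in KO A5-negative cells, against 25.3, 23.2 and 31.4 CPM in WT A5-negative cells. KO was lower in all 6 pairs, with an averaged change of -0.56 ± 0.15 (edgeR adjusted p = 0.034), held in 4 of 12 leave-outs.

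**Figure D4:**
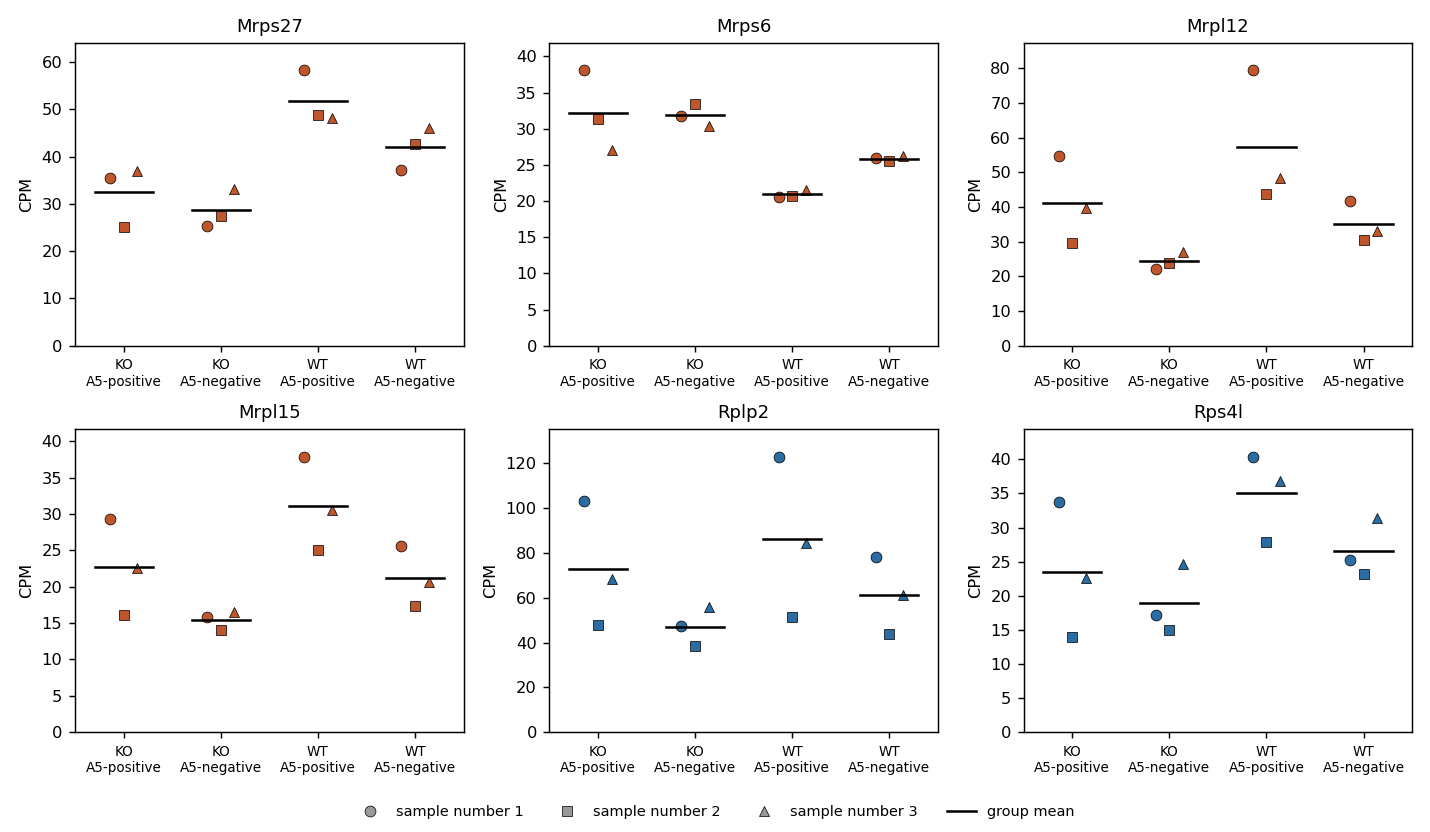
CPM, on axes that start at 0, of 4 mitochondrial and 2 cytosolic members in the 4 groups; symbols are libraries, shapes the sample numbers and lines group means. Mrps27 lay at 25.2 to 37.0 CPM in KO and 37.1 to 58.3 CPM in WT libraries, Mrps6 at 27.0 to 38.1 CPM in KO and 20.6 to 26.2 CPM in WT libraries, and Mrpl12 was higher in A5-positive cells of each genotype.

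No member passed the test that the A5 change differs between the genotypes, with or without the block, and neither did any other gene (0% of all genes); at an unadjusted p under 0.05 there were 0 members of either set, against 2.75% of all genes. The median difference of the changes, KO minus WT, was 0.16 for cytosolic and 0.07 for mitochondrial members. Mrps6 and Mrpl50 had the smallest p-values of the mitochondrial set, at 0.32 ± 0.19 and 0.21 ± 0.18 (SE), and Mrpl41 and Mrpl46 had 0.38 ± 0.33 and 0.36 ± 0.35. Among cytosolic members Rpl10a had 0.28 ± 0.34, Rps27l 0.31 ± 0.39 and Rpl30 0.30 ± 0.41.

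Among the stalk proteins, Rplp0 had 1420, 907 and 1020 CPM in KO A5-positive cells, against 948, 979 and 1130 CPM in KO A5-negative cells, and 1430, 1040 and 1330 CPM in WT A5-positive cells, against 1370, 935 and 1260 CPM in WT A5-negative cells. A5-positive and A5-negative libraries overlapped in each genotype, and in KO only sample 1 was higher in A5-positive cells. The log2 changes of Rplp0 were 0.13 ± 0.20 in KO and 0.09 ± 0.20 in WT. Rplp1, which pairs with Rplp2 on the base, had 171, 74.1 and 109 CPM in KO A5-positive cells, against 78.9, 69.5 and 103 CPM in KO A5-negative cells, and 187, 84.2 and 147 CPM in WT A5-positive cells, against 136, 67.6 and 108 CPM in WT A5-negative cells. Its log2 changes were 0.49 ± 0.35 in KO and 0.43 ± 0.35 in WT, neither of which passed with the block (adjusted p = 0.138 and 0.141), while Rplp2 had 0.63 ± 0.34 and 0.50 ± 0.34.

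For 4 paralog pairs both genes were members. The ratios below are of CPM within a library, with no correction for length, so only their differences between groups can be read. Rps27l over Rps27 was 0.729, 0.757 and 0.884 in KO A5-positive cells, against 0.66, 0.621 and 0.701 in KO A5-negative cells, and 0.776, 0.786 and 0.789 in WT A5-positive cells, against 0.685, 0.72 and 0.74 in WT A5-negative cells. It was higher in A5-positive cells without overlap in each genotype, although 98.6% of the windows of Rps27 occur in other genes. Rps4l over Rps4x averaged 0.126 ± 0.0108 and 0.138 ± 0.0162 in KO A5-positive and KO A5-negative cells, and 0.176 ± 0.0211 and 0.167 ± 0.0451 in WT A5-positive and WT A5-negative cells (SD, n = 3 each); the genotypes did not overlap in A5-positive cells and did in A5-negative cells, through WT sample 1 at 0.118. Rpl7l1 over Rpl7 was 0.335, 0.761 and 0.495 in KO A5-positive cells, against 0.362, 0.622 and 0.374 in WT A5-positive cells, and sample 2 was highest in all 4 groups. Rpl22l1 over Rpl22, a pair known to regulate each other in mouse, averaged 0.237 ± 0.0271 in KO A5-positive cells, against 0.202 ± 0.0378 in KO A5-negative cells, and 0.197 ± 0.0307 in WT A5-positive cells, against 0.196 ± 0.0154 in WT A5-negative cells (SD, n = 3 each), with overlap throughout.

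**Figure D5:**
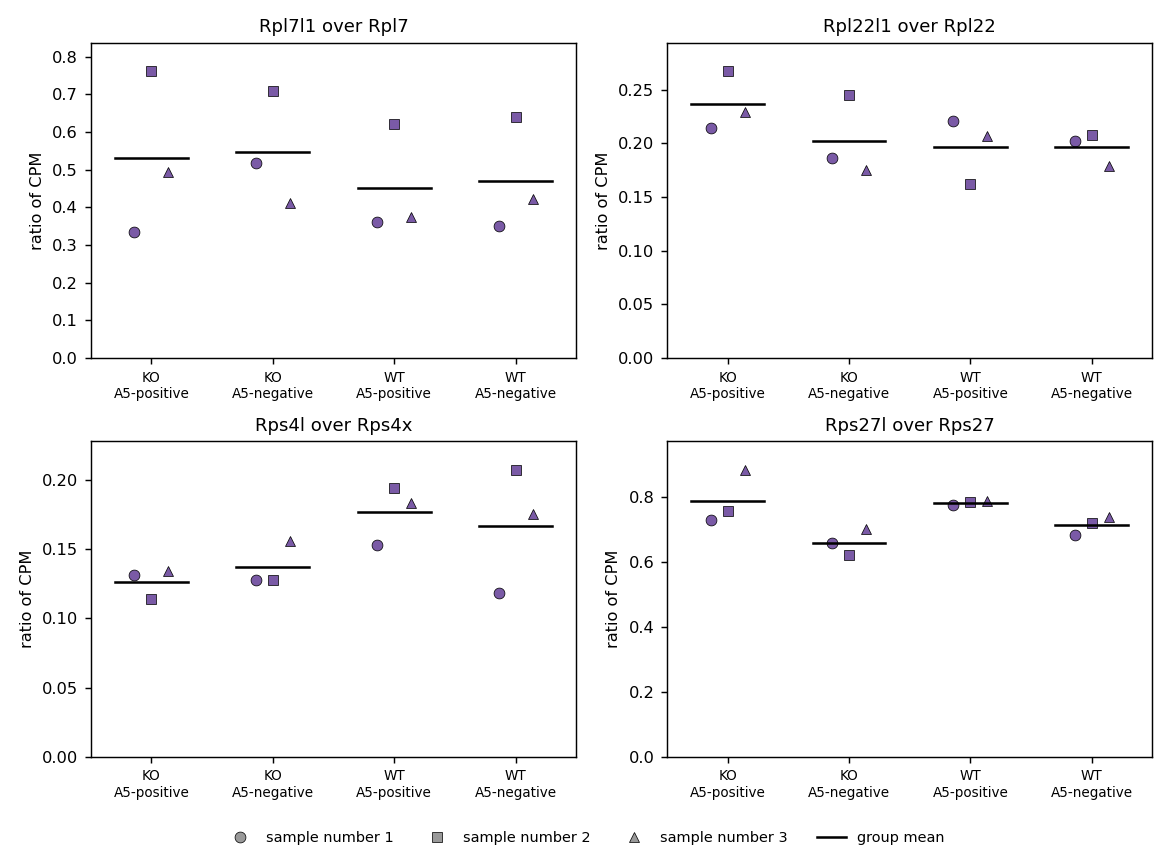
Ratio of the CPM of a paralog to that of its partner in each library, for 4 pairs, on axes that start at 0; symbols are libraries, shapes the sample numbers and lines group means. Rps27l over Rps27 stood at 0.729 to 0.884 in KO A5-positive cells, against 0.621 to 0.701 in KO A5-negative cells, and at 0.776 to 0.789 in WT A5-positive cells, against 0.685 to 0.74 in WT A5-negative cells.

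In the blocked average of A5, where 18.5% of all genes rose and 15.5% fell, 7 of 8 mitochondrial ribosomal proteins with other symbols rose; among them Dap3, a GTP-binding small-subunit protein, had blocked log2 changes of 0.43 ± 0.10 in KO and 0.34 ± 0.10 in WT (edgeR adjusted p = 0.0159 and 0.0449). Of 54 ribosome biogenesis genes 12 rose and 1 fell, with a median of 0.06, and of 39 cytosolic translation factors 10 rose and 4 fell, with a median of 0.15, against medians of 0.31 and 0.43 for the cytosolic and mitochondrial sets; as shares, 22.2% and 25.6% of these lists rose, near the share of all genes. Rpf2, which joins the 5S particle to the pre-ribosome, passed even without the block in KO (log2 change 0.70 ± 0.19, edgeR adjusted p = 0.048). Of 32 mitochondrial translation and assembly factors 8 (25%) rose and 1 fell; the elongation factors Tufm and Tsfm had blocked changes of 0.55 ± 0.14 and 0.59 ± 0.13 in KO (edgeR adjusted p = 0.0196 and 0.0119). Mrm2, the methyltransferase of mt-Rnr2, passed without the block in WT (1.26 ± 0.30, adjusted p = 0.0401).

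In KO against WT, 4 of the 32 mitochondrial factors fell and none rose in A5-positive cells with the block, with a median of -0.31, against 1.76% of all genes that fell. Mrm2 had -1.34 ± 0.26 (edgeR adjusted p = 0.0362), the ribosome-recycling factor Gfm2 -0.57 ± 0.13 (0.0407) and the initiation factor Mtif3 -0.68 ± 0.15 (0.0404). In the blocked average over fractions, where 6.97% of all genes rose and 5.13% fell, 8 of 32 fell and none rose. Of 54 ribosome biogenesis genes 9 rose and none fell in that average, with a median of -0.01, and of 39 cytosolic translation factors 4 rose and 5 fell. The mitochondrial rRNA mt-Rnr1 had 241, 107 and 258 CPM in KO A5-positive cells, against 139, 90.1 and 173 CPM in KO A5-negative cells, and 251, 84.4 and 199 CPM in WT A5-positive cells, against 188, 82.6 and 177 CPM in WT A5-negative cells. Sample 2 was lowest in every group. With the block mt-Rnr1 rose in KO (log2 change 0.53 ± 0.15, edgeR adjusted p = 0.0319) and had 0.22 ± 0.15 in WT (adjusted p = 0.342). The other mitochondrial rRNA, mt-Rnr2, had 2800, 863 and 1910 CPM in KO A5-positive cells, against 1290, 885 and 2090 CPM in KO A5-negative cells, so only sample 1 was higher in A5-positive cells. It was not called with the block in KO (0.27 ± 0.22, adjusted p = 0.432) or in WT (0.11 ± 0.22, adjusted p = 0.767).

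Cytosolic medians were close across classes of shared sequence. Cytosolic members with under 25% of windows shared (13 genes) had median log2 changes of 0.37 for A5 in KO and 0.23 in WT, those with 25% to 50% (35 genes) 0.45 and 0.28, and those with 50% or more (31 genes) 0.40 and 0.25. For genotype the same classes had -0.14, -0.17 and -0.16 in A5-positive and -0.28, -0.32 and -0.31 in A5-negative cells. Length was taken here as the exonic bases of all transcripts of a gene together, and can exceed the single principal transcript used for levels per kilobase. All genes with under 1000 such bases had a median of 0.15 for A5 in KO, where the 11 cytosolic and 7 mitochondrial members of that length had 0.49 and 0.60. Genes with over 4000 such bases had -0.09, and the 6 cytosolic and 22 mitochondrial members of that length 0.37 and 0.42.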

How the data were processed

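RNA of 4 groups with 3 libraries each had been sequenced after SMART-Seq v4 and ThruPLEX preparation, per the labels' protocols. Per the submitters' processing notes, the tools included bcl2fastq, Trimmomatic 0.36, STAR and featureCounts, with build mm10 (GRCm38); for the strand setting and multiply mapped reads, no source used here gives an answer. The authors deposited raw counts per gene symbol, with no normalization. Of 55341 rows, 26 symbols had been turned into dates and were left out (0.110% to 0.128% of counts), and 2 symbols that match the member rule are not reported here. Positions came from GENCODE M21 and promoters from RefSeq (GRCm38.p6); 59 cytosolic and 61 mitochondrial members matched a promoter.

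Counts were analysed with edgeR 4.0.16 (R 4.3.3). After TMM scaling (factors 0.919 to 1.08), filterByExpr with the group factor left 16677 genes, all 149 members among them. One model of 4 groups over 12 libraries gave quasi-likelihood F tests, with Benjamini-Hochberg adjustment over all genes and a threshold of 0.05. CPM of members use TMM-scaled totals; the member rule and the symbols below it use plain totals. Changes are log2, KO over WT or A5-positive over A5-negative. The block adds the sample number as a factor. Residuals of same-numbered libraries were correlated in all 18 pairs over 9071 genes (0.153 to 0.722, median 0.452), so the numbers were taken to pair the libraries. The median over 36 pairs of different number was -0.238. That value adds no separate support, as residuals from a group mean cancel out within the group. DESeq2 1.42.0, limma 3.58.1 (voom with quality weights), other scalings and filters, a fibroblast-marker covariate and leaving out libraries were alternatives. The scripts were tested on simulated counts.

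Members, lists and the rule for named genes were chosen with earlier results of these data known. The rule names, for each comparison and set, the 6 members with the smallest p-values, always the paralog pairs, the stalk proteins and the 3 highest members per kilobase, and 3 genes of each other list. Members named for their calls in the blocked averages were chosen after their values were seen. Each library is a pool of mice, and the p-values reflect variation among libraries. In blocked fits it is the variation left after the sample number. Whether both fractions of a genotype and sample number came from the same pool is not given.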

Additional observations from a re-analysis of the deposited data

How the results depend on the processing

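How many members were called depended on the block and on single libraries; where no cause is named, the cause was not tested. Without the block, mitochondrial calls for A5 in KO were 0, against 23 with the replicate block, 1 with no filter on low counts, 5 with voom, 2 with DESeq2 and 0 to 7 over the leave-outs (7 without KO A5-positive sample 2); cytosolic calls were 0, against 3 with the replicate block. For A5 in WT the block gave 13 mitochondrial calls in place of 0, and for genotype in A5-positive cells the block and DESeq2 gave 2 each in place of 0; the block changed no other count of members called in the 5 comparisons.

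With the block, the fibroblast covariate gave 0 calls in every comparison and average. The summed fibroblast level did not overlap between A5-positive and A5-negative libraries, so such fits separate marker level from A5 poorly. For A5 in KO, the 3 cytosolic and 23 mitochondrial calls became 0 and 3 with the compared libraries only, 0 and 10 with voom, 14 and 35 with DESeq2, and 0 to 6 and 0 to 26 over leave-outs. For A5 in WT, the 0 and 13 became 12 and 23 with the compared libraries only, 1 and 18 with voom, 1 and 21 with DESeq2, and the mitochondrial count 0 to 9 over leave-outs. For genotype in A5-positive cells, 0 and 2 became 1 and 7 with DESeq2, 0 mitochondrial with the compared libraries only, and 0 to 1 and 0 to 2 over leave-outs; in A5-negative cells DESeq2 called 5 mitochondrial members in place of 0. For the A5 average, 31 and 55 became 0 and 19 without the replicate block, 20 cytosolic with voom, and 6 to 32 and 20 to 53 over leave-outs, which include leaving out whole sample numbers. For the genotype average, 2 and 15 became 0 and 0 without the replicate block, 5 and 32 with DESeq2, and 0 to 3 and 0 to 22 over leave-outs.

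The difference of the set medians, cytosolic minus mitochondrial, was -0.19 to 0.02 over leave-outs for A5 in KO and -0.25 with the fibroblast covariate; in WT it was -0.29 with that covariate. The interaction of the log2 ratio ran from -0.07 to 0.12 over leave-outs. With the fibroblast covariate, which is poorly separated from A5, the A5 change was below or at 0 for some named members. In KO these were Rpl7 (-0.08), Rpl22 (-0.51), Rps4x (-0.1) and Rpl3 (-0.15). In WT they were Rps27l (-0.04), Rpl7 (-0.14), Rpl22 (-0.42), Rps4x (-0.14), Rps27 (-0.1), Rpl3 (-0.17), Rpl39 (0) and Rpl4 (0). Over leave-outs, changes that crossed 0 ran for A5 in KO from -0.02 to 0.45 for Rpl10, -0.19 to 0.38 for Rpl22, -0.02 to 0.18 for Rpl4, -0.13 to 0.3 for Rplp0, -0.01 to 0.59 for Rps27 and -0.12 to 0.58 for Rps4l. For A5 in WT they ran from -0.05 to 0.31 for Rpl10, -0.08 to 0.31 for Rpl22, -0.11 to 0.42 for Rpl22l1, -0.04 to 0.29 for Rpl3, -0.05 to 0.12 for Rpl4, -0.06 to 0.39 for Rpl7, -0.08 to 0.21 for Rplp0 and -0.12 to 0.4 for Rps27. For genotype in A5-positive cells they ran from -0.42 to 0.05 for Rpl5 and -0.53 to 0.01 for Rpl6. For the interaction they ran from -0.05 to 0.4 for Mrpl45, -0.05 to 0.51 for Rpl10a, -0.01 to 0.56 for Rpl30, -0.05 to 0.49 for Rps19 and -0.04 to 0.56 for Rps23. Other size factors, scaling by the other genes, a CPM minimum of 5, a subtracted length trend and means for medians were also tried.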
